A study of Mus musculus with 18 samples.

Results

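The genes described are 9 transcription factors and regulators of the integrated stress response, Atf4, Atf5, Ddit3, Cebpb, Cebpg, Atf3, Nupr1, Trib3 and Chac1. They were found by symbol in the authors' table of folds, and all 9 were among its 12205 genes, so no filter on low values removed a member. The cells were primary mouse astrocytes homozygous for the R132H change of Eif2b5, the catalytic subunit of the initiation factor eIF2B, a genotype that models vanishing white matter disease. Every mutant group carries this change in all cells, the untreated one included. The cultures lasted 120 hr and were left untreated or received TNFα at 20 ng/ml together with IL-1β at 0.25 ng/ml for the final 24 hr or 48 hr. The 18 libraries form 6 groups of 3 (batches A, B and C, biological repetitions of unstated mouse number), by RNA-seq or by Ribo-seq, in which only the mRNA pieces covered by ribosomes (ribosome-protected fragments, RPF, or footprints) are read.

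The values are the log2 folds of treated over untreated cells that the authors deposited, 1 value per gene and comparison, for mRNA, for RPF and for ribosome density (RD), a measure of footprints relative to mRNA. A log2 fold of 1 means a doubling. There are no values per library, so no gene was tested, no fold carries an error, and the depth is unknown. The table also holds the same folds for wild-type (WT) cells, whose own libraries are in none of the 6 groups. All 12 astrocyte markers looked for have rows in the table, as have 3 of 8 markers of microglia and macrophages, 5 of 8 of the oligodendrocyte lineage, 3 of 6 of neurons and 7 of 7 of fibroblasts and mural cells. The table gives folds and not levels, so how much of each cell type was present cannot be read from it, and more cells of a type cannot be told apart from more RNA per cell. Several markers had large folds. In mutant mRNA at 24 hr, 4 of 12 astrocyte markers were at or below -1 and 1 at or above 1 (median -0.87), 2 of 3 microglial markers were at or above 1 (median 1.16), and 3 of 7 fibroblast and mural markers reached 1 and 1 reached -1 (median 0.16). Of the lineage markers of oligodendrocytes 1 of 5 was past the threshold on each side, and of the neuronal ones 1 of 3 on the lower side. Per the authors' deposited table, Adgre1, a macrophage marker, was at 6.71 in mutant and 7.55 in WT mRNA after 48 hr, and Dcn, of fibroblasts, at 4.60 in the mutant after 24 hr. Other markers of the same lists did not follow these. In the authors' deposited table, mutant and WT mRNA after 48 hr were at 1.18 and 0.56 for Cd68 and at 1.43 and 0.09 for Tmem119. Adgre1 itself was at 0.82 and 0.57 after 24 hr, and Acta2, a mural marker, at -2.81 in the mutant, per the authors' deposited table. The part of such cells in the folds below was not tested.

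When eIF2 is phosphorylated by a stress kinase, it blocks eIF2B, and the eIF2 that carries the initiator tRNA becomes scarce. Most mRNAs are then translated less, while a few with short upstream open reading frames (uORFs) in the leader, the stretch before the coding sequence, are translated more. ATF4 is the best known of these, a basic leucine zipper (bZIP) factor that switches on genes of amino acid supply and of stress defence, among them several of the factors described here. In mice with eIF2B mutations, astrocytes are known to show a chronic form of this response.

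After 24 hr of cytokines the mutant astrocytes had mRNA folds above 0 for all 9 genes (53.2% of all genes), and Nupr1 and Cebpb stood far above the others. The authors' deposited table put mutant mRNA at 3.02 for Nupr1, at 2.93 for Cebpb and at 1.17 for Ddit3, and the other 6 genes lay between 0.27 and 0.85. Thus 3 of 9 members were at or above 1, against 7.73% of all genes, and the members' median was 0.84 against 0.03 for all genes. At 48 hr 2 members, Cebpb and Nupr1, were at or above 1 (8.96% of all genes), and the median was 0.60. The footprints had the same 2 members at or above 1, at 24 hr (7.32%) and at 48 hr (7.43%). No member was at or below -1 in any of the 12 columns. In mRNA that was so for 7.27% and 8.24% of all genes in the mutant and 9.55% and 10.3% in the WT, at 24 hr and 48 hr. In footprints it was so for 7.9% and 8.29% in the mutant and 8.7% and 8.71% in the WT. In WT cells 4 members reached 1 in mRNA at 24 hr (7.54%), with Atf4 added, and 2 at 48 hr (8.11%). In WT footprints Atf4, Cebpb and Nupr1 reached 1 at both times (7.87% and 8.13%).

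**Figure D1:**
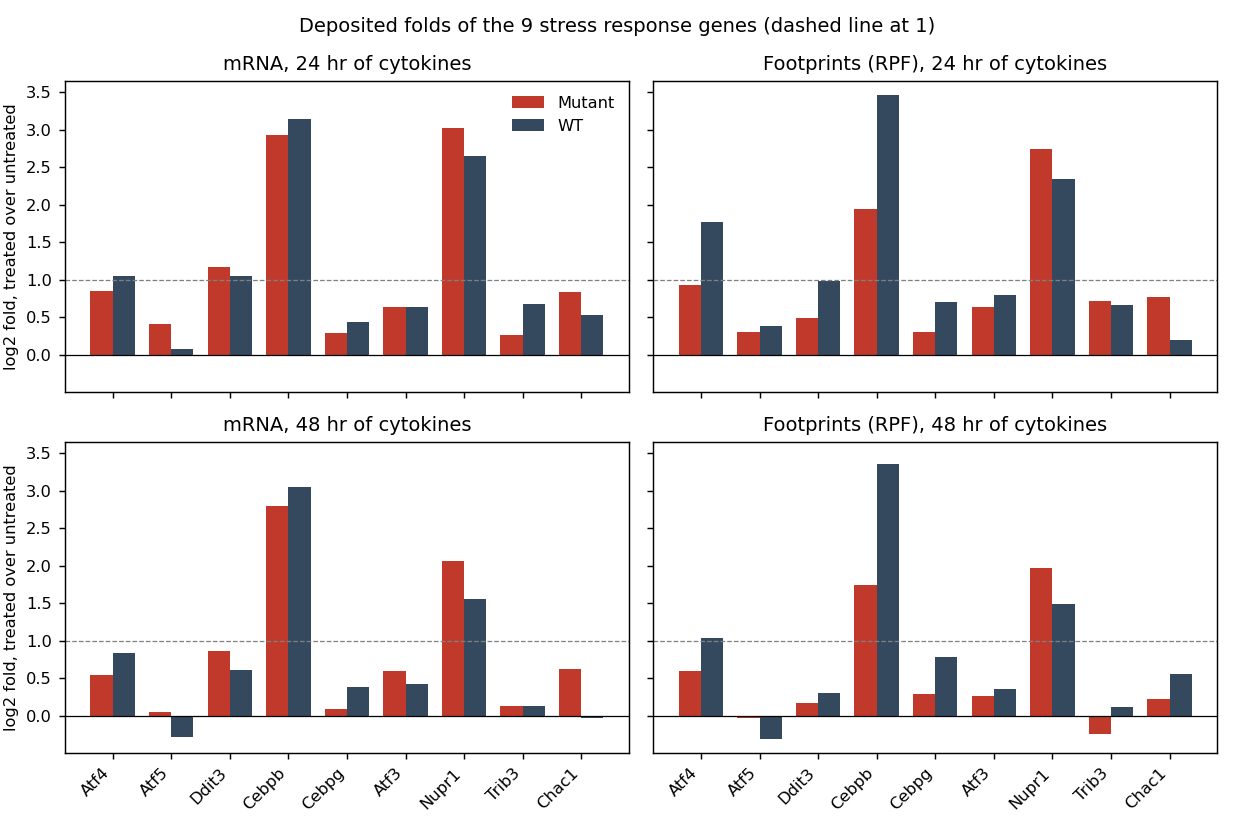
Log2 folds of treated over untreated cells for the 9 genes in mRNA (left) and footprints (right) at 24 hr (top) and 48 hr (bottom), 1 deposited value per bar, with no error available. Cebpb and Nupr1 are the tallest in each panel, and the Cebpb footprint bar of the mutant (1.95 at 24 hr) is far below that of the WT (3.46).

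The leaders differ among the members. In GENCODE M21 (GRCm38), 6 of 9 members have at least 1 frame that starts with ATG in the leader and meets a stop codon, against 51.7% of the 11990 genes with an annotated leader. In 2 of 9, Atf4 and Atf5, such a frame runs into the coding sequence, against 16.0% of all genes. The leader of Atf4 has 594 bases, that of Atf5 373 and that of Ddit3 186, against a median of 184 bases. Cebpb (107 bases), Trib3 (176) and Chac1 (174) have no such frame in the leader. These values and the frames given below are for 1 chosen transcript per gene. Over all coding transcripts of a gene, the number of frames ran from 1 to 3 for Cebpg and from 2 to 3 for Atf4 and Atf5. Over all genes, having an upstream frame went with almost no difference in mutant RD. Its median was 0.00 with a frame and 0.01 without at 24 hr, and 0.04 and 0.03 at 48 hr. In WT RD the median was lower with a frame, at -0.06 against 0.00 at 24 hr and -0.09 against -0.01 at 48 hr. The sources used here do not say whether footprints were counted over the whole mRNA or over coding sequence alone, so footprints on upstream frames may be part of the RPF values.

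**Figure D2:**
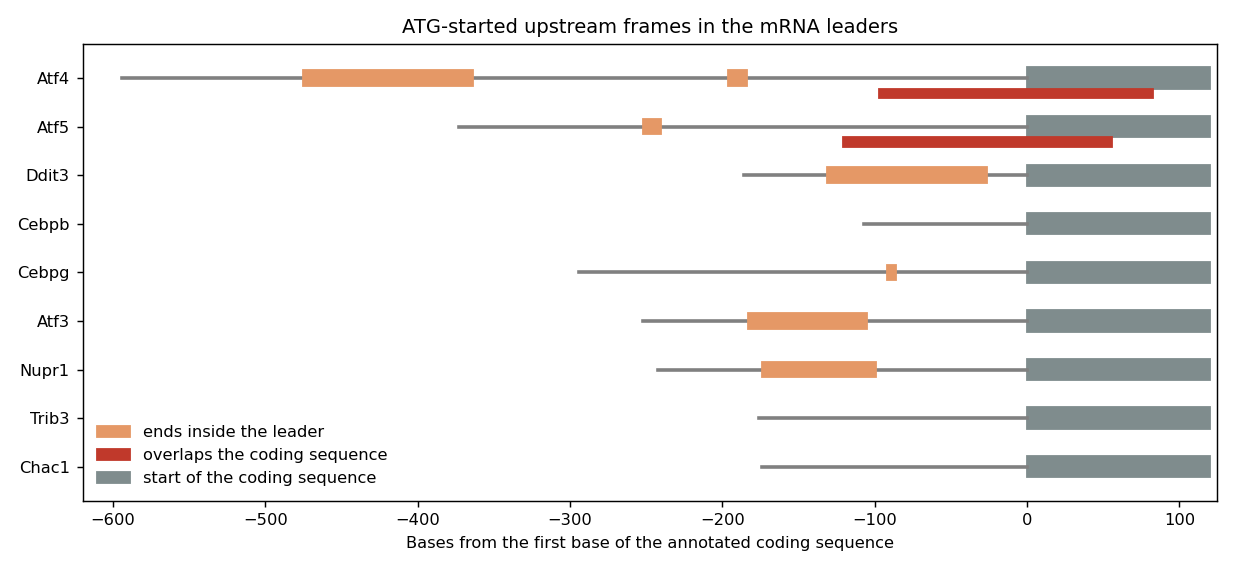
Leaders (lines) of the 9 genes and the ATG-started frames in them, by distance in bases from the first coding base, for the GENCODE M21 transcript chosen for each gene. The frames in red, of Atf4 and Atf5, reach 83 and 56 bases into the coding sequence.

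Atf4 (chr15:80255184-80257541, plus strand, GRCm38) encodes the central factor of the response. Its leader holds frames of 37, 4 and 60 codons, counting the stop, and the 60-codon frame starts 97 bases before the coding sequence. The stretch in which both frames are read is shown for Atf4 and for its relative Atf5, from the GENCODE M21 transcripts. The first capitals mark the start codon of the protein and the last capitals the stop codon of the upstream frame.
Atf4, first 83 coding bases: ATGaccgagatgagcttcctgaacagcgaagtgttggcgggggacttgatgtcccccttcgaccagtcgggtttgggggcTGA
Atf5, first 56 coding bases: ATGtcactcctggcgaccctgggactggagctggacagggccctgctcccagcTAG
A ribosome that reads the upstream frame of Atf4 therefore stops at coding base 83, past the start codon of the protein and in another frame.

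For Atf4 the authors' deposited table listed mutant mRNA at 0.85 and mutant RPF at 0.93 after 24 hr. After 48 hr the authors' deposited table listed 0.55 for mRNA and 0.60 for RPF. The footprint fold was close to the mRNA fold at both times, and RD was small, at 0.16 and 0.17 per the authors' deposited table. In WT cells the authors' deposited table had mRNA at 1.05 and RPF at 1.77 at 24 hr, an RPF to mRNA ratio of 1.65 between the linear folds, with RD at 0.70. Later, after 48 hr, the WT values per the authors' deposited table were 0.84 for mRNA, 1.03 for RPF and 0.16 for RD. Atf4 footprints thus stood above mRNA in the WT at 24 hr and near mRNA in the mutant.

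Atf5 (chr7:44812256-44816658, minus strand) encodes a related bZIP factor known for the mitochondrial stress response, and its leader holds frames of 4 and 59 codons. Per the authors' deposited table, Atf5 mRNA in the mutant was at 0.41 after 24 hr and 0.05 after 48 hr, and its RPF at 0.30 and -0.03. For WT cells the authors' deposited table listed mRNA at 0.07 and -0.28 and RPF at 0.39 and -0.30. Its fold was the smallest among the members in mutant mRNA at 48 hr. As deposited, at 24 hr the WT footprints stood above WT mRNA while the mutant footprints did not. Beyond the median of genes of like GC content, a step described further on, Atf5 RD at 24 hr was 0.05 in the mutant and -0.10 in the WT. The order of the genotypes was thus turned round. On the opposite strand Atf5 overlaps Il4i1 and Nup62. The RNA-seq kit keeps the strand, but the sources used here do not say whether counting used it.

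Ddit3 (chr10:127290774-127296288, plus strand) encodes CHOP, a C/EBP relative that is induced by ATF4 and known for promoting cell death under lasting stress. Its leader holds a frame of 35 codons that ends 26 bases before the coding sequence. Per the authors' deposited table, mutant Ddit3 mRNA was at 1.17 after 24 hr and 0.86 after 48 hr, and mutant RPF at 0.49 and 0.18. The mutant footprint fold was therefore 0.622 times the mRNA fold on the linear scale at 24 hr and 0.625 times at 48 hr. Mutant RD was at -0.63 and -0.56 per the authors' deposited table, and lower values were held by 2.75% of all genes after 24 hr and 5.82% after 48 hr. In the WT the authors' deposited table put mRNA at 1.05 and 0.61, RPF at 0.98 and 0.31 and RD at 0.03 and -0.24. The gap between the Ddit3 folds of mRNA and footprints was wider in the mutant at both times as deposited. Beyond the median of genes of like GC content, a step described further on, Ddit3 RD at 48 hr was -0.45 in the mutant and -0.47 in the WT, and the difference was gone. Ddit3 overlaps Mars on the opposite strand (mutant mRNA at 0.52 after 24 hr per the authors' deposited table) and another annotated Ddit3 gene on its own strand, so its counts may hold reads of these.

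Cebpb (chr2:167688915-167690418, plus strand) encodes C/EBPβ, a factor of inflammatory gene expression and a partner of ATF4 and CHOP. Its mRNA gives rise to longer activating and shorter inhibitory proteins from different start codons, and a short frame out of phase with the protein is known to govern the choice between them. In the transcript used here this frame lies inside the annotated coding sequence. It starts at coding base 30, has 10 codons counting the stop and ends 4 bases before the ATG at codon 22. The stretch is shown with, in capitals and in order, the first start codon, the start and the stop of the short frame, and the ATG of codon 22.
Cebpb, first 66 coding bases: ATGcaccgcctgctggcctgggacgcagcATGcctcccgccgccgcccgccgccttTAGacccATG

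Cebpb had the widest gap between mRNA and footprints among the members in the mutant. The authors' deposited table listed mutant mRNA at 2.93 after 24 hr and 2.79 after 48 hr, or 7.60-fold and 6.94-fold on the linear scale. Mutant RPF in the authors' deposited table was at 1.95 and 1.74, or 3.86-fold and 3.34-fold. The footprint fold was thus 0.508 times the mRNA fold at 24 hr and 0.482 times at 48 hr. Mutant RD stood at -0.92 and -0.95 in the authors' deposited table, a value under which only 1.29% and 1.42% of all genes lay. In the WT the footprint fold was instead above the mRNA fold, namely 3.46 against 3.15 after 24 hr and 3.36 against 3.05 after 48 hr per the authors' deposited table. The WT ratio of footprint to mRNA fold was 1.24 at both times, and WT RD in the authors' deposited table was 0.26 and 0.18. Cebpb has a GC-rich transcript (67.2% GC) and overlaps Tmem189 on the opposite strand. Beyond the median of genes of like GC content, its RD was -0.80 and -0.57 in the mutant and -0.21 and -0.45 in the WT. It was then below 0 in both genotypes, and the values of the genotypes were close at 48 hr. The genes compared run from 60.0% to 72.9% GC, so their median may not fit a transcript at 67.2%.

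Cebpg (chr7:35046422-35056573, minus strand) encodes C/EBPγ, which pairs with ATF4, and its leader holds a frame of 2 codons. Mutant mRNA was at 0.30 after 24 hr and 0.10 after 48 hr, and RPF at 0.31 and 0.29, per the authors' deposited table. For the WT the authors' deposited table listed mRNA at 0.44 and 0.39 and RPF at 0.70 and 0.78. All 8 of these Cebpg values were below 1, and those of the WT were the higher in each pair. Beyond genes of like GC content the mutant minus WT difference in Cebpg mRNA was 0.03 and 0.05, so the order held in footprints only.

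**Figure D3:**
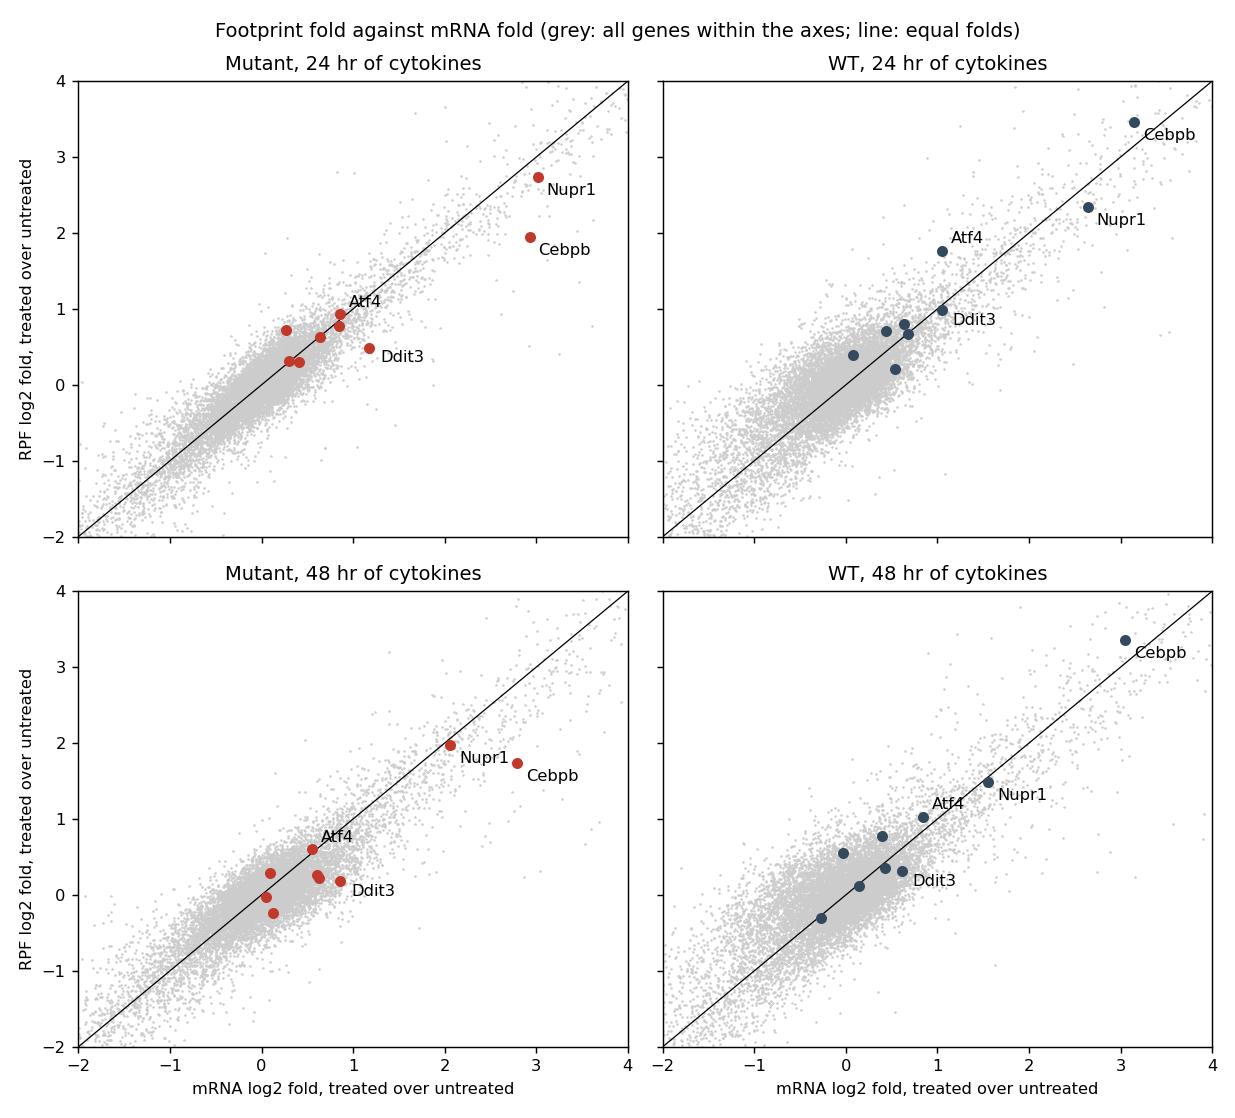
Footprint (RPF) fold against mRNA fold on the log2 scale for all genes within the axes (grey) and for the 9 members (coloured), in the mutant (left) and the WT (right), with the line of equal folds. Cebpb and Ddit3 lie below the line in the mutant, and Cebpb and Atf4 lie above it in the WT. Other members lie off the line too, among them Chac1 at 48 hr, below it in the mutant and above it in the WT.

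Taking the 5 members with known regulatory reading frames (Atf4, Atf5, Ddit3, Cebpb and Cebpg), mutant RD was below 0 in 3 of 5 at both times, with Atf5 close to 0, against 48.5% and 45.4% of all genes. In WT cells none of the 5 was below 0 at 24 hr and 2 were at 48 hr, against 52.8% and 54.2% of all genes. Beyond the median of genes of like GC content, 2 of 5 were below 0 in the mutant and 3 of 5 in the WT at each time, so these counts depend on the GC content. No member reached 1 or -1 in WT RD at 24 hr (1.79% and 1.32% of all genes). No member was at or beyond 1 in mutant RD in either direction, although the RPF fold minus the mRNA fold of Cebpb was -1.05 at 48 hr. Of all genes, 1.1% after 24 hr and 1.24% after 48 hr lay at or below -1, and 0.606% and 0.762% at or above 1. The deposited RD differed from the RPF fold minus the mRNA fold by more than 0.2 in 6 of 36 member values, of Atf3, Trib3 and Chac1. The sources used here do not give the computation of RD.

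**Figure D4:**
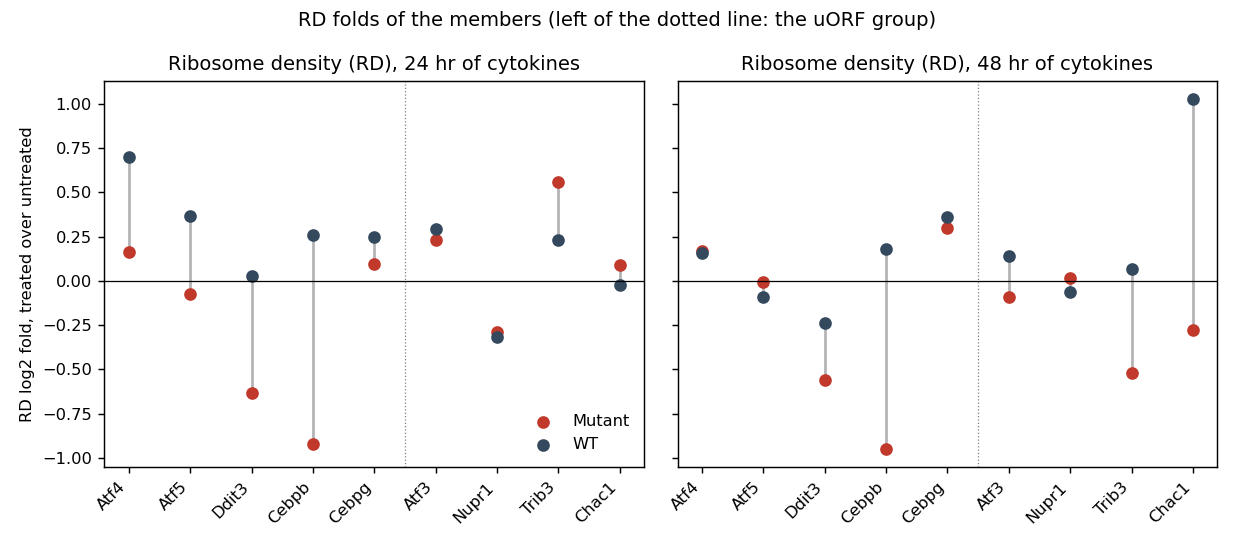
RD log2 folds of the 9 genes in the mutant (red) and the WT (dark blue) at 24 hr (left) and 48 hr (right), each point 1 deposited value. The mutant Cebpb points are the lowest, at -0.92 and -0.95, and the WT Chac1 point at 48 hr is the highest, at 1.03.

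Among the genes that ATF4 and its partners are known to induce, Nupr1, Chac1 and Atf3 share a sequence before the start of transcription. The core of the C/EBP-ATF response element (CARE), to which ATF4 binds together with a C/EBP factor, was searched as TTGCATCA on both strands of the RefSeq promoters (GRCm38.p6), windows of 300 bases from 250 before the start to 50 after it. It was found in 3 of 9 members, against 0.895% of 32851 promoters. It lies at bases -110 to -103 in Nupr1 and in Atf3 and at -193 to -186 in Chac1. The RefSeq starts of Nupr1 and Atf3 lie inside the GENCODE genes, which also hold starts farther upstream. The 250 bases before the start are shown for these 3, with the CARE core in capitals.
Nupr1 promoter, chr7:126625471-126625720, minus strand: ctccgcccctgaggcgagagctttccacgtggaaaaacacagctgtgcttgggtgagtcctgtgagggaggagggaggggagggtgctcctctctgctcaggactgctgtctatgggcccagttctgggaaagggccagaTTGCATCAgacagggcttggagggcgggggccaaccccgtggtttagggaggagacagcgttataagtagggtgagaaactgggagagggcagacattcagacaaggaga
Chac1 promoter, chr2:119350992-119351241, plus strand: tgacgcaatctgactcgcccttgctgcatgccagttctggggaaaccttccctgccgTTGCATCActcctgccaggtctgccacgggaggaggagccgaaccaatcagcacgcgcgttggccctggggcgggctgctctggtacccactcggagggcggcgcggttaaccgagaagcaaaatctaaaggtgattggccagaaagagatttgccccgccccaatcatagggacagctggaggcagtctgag
Atf3 promoter, chr1:191183334-191183583, minus strand: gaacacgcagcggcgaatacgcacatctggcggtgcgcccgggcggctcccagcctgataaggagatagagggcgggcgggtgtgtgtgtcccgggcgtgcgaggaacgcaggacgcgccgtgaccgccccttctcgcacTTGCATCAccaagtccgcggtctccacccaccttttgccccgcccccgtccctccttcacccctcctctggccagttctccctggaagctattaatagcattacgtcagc
Of the other motifs searched, TGANTCA of AP-1 was found in Ddit3 at -242 to -236 (7.81% of promoters). TGACGTCA of the cyclic AMP response element (1.79%), GGGA and TTTCC with 1 base between them, for NF-kappa B (0.411%), and CCAAT and CCACG with 9 bases between them, for the ER stress element (0.119%), were in no member's window, which says only that these letters are not there. A match is not a binding site by itself, and no factor's binding was measured.

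Nupr1 (chr7:126623249-126630861, minus strand) encodes a small stress protein that acts on chromatin. In the mutant the authors' deposited table listed mRNA at 3.02 after 24 hr and 2.06 after 48 hr, or 8.09-fold and 4.17-fold. Mutant RPF in the authors' deposited table was at 2.74 and 1.97. In the WT the authors' deposited table listed mRNA at 2.64 and 1.55 and RPF at 2.34 and 1.49. Nupr1 was thus high in all 8 values, lower at 48 hr than at 24 hr, and as deposited somewhat higher in the mutant than in the WT. Its RD folds lay between -0.32 and 0.02 in the authors' deposited table, although its leader holds a frame of 25 codons.

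Atf3 (chr1:191170296-191218039, minus strand) encodes a bZIP factor that mostly represses and is induced by many stresses. Mutant mRNA in the authors' deposited table was at 0.64 and 0.60, and mutant RPF at 0.63 and 0.26. In the WT the authors' deposited table gave mRNA at 0.63 and 0.42 and RPF at 0.80 and 0.36. All 8 Atf3 values lay between 0 and 1, with nearly equal mRNA folds in both genotypes at 24 hr.

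Chac1 (chr2:119351229-119354381, plus strand) encodes an enzyme that breaks down glutathione and is a target of ATF4 and CHOP. Per the authors' deposited table, mutant Chac1 mRNA was at 0.84 and 0.63 and mutant RPF at 0.77 and 0.22. WT mRNA was at 0.53 and -0.03 per the authors' deposited table, with RPF at 0.20 and 0.55 and RD at -0.03 and 1.03. Chac1 in the WT at 48 hr was the only RD value of a member at or above 1, against 2.85% of all genes (1.71% were at or below -1). The RPF fold minus the mRNA fold was 0.58 there, well under the deposited RD.

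Trib3 (chr2:152337422-152344032, minus strand) encodes a pseudokinase that is induced by ATF4 and CHOP and restrains ATF4. Mutant mRNA in the authors' deposited table was at 0.27 and 0.13, and mutant RPF at 0.72 and -0.24. Its mutant RD was 0.56 after 24 hr and -0.52 after 48 hr per the authors' deposited table, while the mRNA folds of both times were close. The difference of -1.08 between these RD folds was the only difference between the times at or below -1 among the mutant values of the members. Of all genes 0.492% were there in RD, 0.869% in mRNA and 1.12% in RPF. In the WT the authors' deposited table gave Trib3 mRNA at 0.67 and 0.14, RPF at 0.66 and 0.12 and RD at 0.23 and 0.06.

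All 9 genes had lower mutant folds at 48 hr than at 24 hr, in mRNA and in footprints. Both folds share the untreated libraries, and over all genes 50.5% in mRNA and 48.3% in footprints had the higher fold at 48 hr. The difference was largest for Nupr1 in mRNA, at -0.96, with 0.918% of all genes lower, and for Trib3 in footprints, at -0.96, with 1.16% lower. For Atf4 it was -0.30 in mRNA and -0.34 in footprints. For Atf3 in mRNA (-0.03) and Cebpg in footprints (-0.02) it was close to 0, with 44.1% and 48.1% of all genes lower. In WT mRNA all 9 were lower at 48 hr too, and the Nupr1 difference was -1.09. In WT footprints 7 of 9 were lower, the exceptions being Chac1 (0.35) and Cebpg (0.08).

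In footprints at 24 hr, the mutant and WT folds of the members differed most for Cebpb and Atf4. For Cebpb the mutant RPF fold minus the WT RPF fold was -1.51 after 24 hr and -1.62 after 48 hr, and 0.213% and 0.246% of all genes were lower. No other member was at or below -1, and 0.631% and 0.885% of all genes were. For Atf4 the difference was -0.83 at 24 hr, with 1.07% of all genes lower, and -0.43 at 48 hr. The 24 hr differences of Ddit3 (-0.49), Cebpg (-0.39) and Atf5 (-0.09) were also below 0, so all 5 members with regulatory frames had the lower footprint fold in the mutant, while 49.2% of all genes had the higher. At 48 hr Atf5 was the exception, at 0.27. A lower mutant fold was not limited to these 5. Atf3 was at -0.17 after 24 hr and -0.10 after 48 hr, and Trib3 at 0.05 and -0.36. At 48 hr only 2 of 9 members, Atf5 and Nupr1, had the higher footprint fold in the mutant, against 50.1% of all genes. Nupr1 (0.40 and 0.48) had the higher footprint fold in the mutant at both times, and Chac1 had 0.57 at 24 hr and -0.33 at 48 hr. The mutant and the WT were deposited as separate comparisons with no replicate values, so none of these differences could be tested. Each fold is over the untreated cells of its own genotype, and levels were not given. A lower fold in the mutant therefore cannot be told apart from a higher level in its untreated cells.

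The mRNA and RD differences between the genotypes moved with the GC content of the transcript over all genes, and the footprint differences hardly did. From the lowest to the highest of 20 GC classes, the median mutant minus WT difference at 24 hr went from -0.21 to 0.61 in mRNA, from 0.00 to -0.05 in RPF and from 0.31 to -0.59 in RD. At 48 hr it went from -0.40 to 1.06 in mRNA, from 0.04 to -0.04 in RPF and from 0.58 to -1.01 in RD. In mRNA, the difference of Cebpb was -0.22 at 24 hr and -0.26 at 48 hr, and -0.83 and -1.32 beyond its class. Beyond the class medians Ddit3, Atf5 and Chac1 had mRNA differences below 0 in place of above it, at both times, and Nupr1 kept 0.13 and 0.07. Cebpb and Atf5 belong to the class of highest GC, which runs from 60.0% to 72.9%, where the class below it runs from 58.3% to 60.0%. The trend inside so wide a class was not followed, so its median may not fit the GC content of either gene. The RD difference of Cebpb was -1.18 after 24 hr and -1.13 after 48 hr, where 2.93% and 7.74% of all genes were at or below -1. After the median of its GC class was subtracted, -0.59 was left at 24 hr and -0.12 at 48 hr. Its footprint difference kept -1.46 and -1.58 after the same step. For Ddit3 the RD difference was -0.66 at 24 hr, and -0.48 beyond its class. At 48 hr it was -0.32, and 0.04 beyond its class, so no lower mutant value was left then. For Atf4 the RD difference was -0.54 at 24 hr, and -0.42 beyond its class. At 48 hr the Atf4 difference was 0.01, and 0.23 beyond its class. For Cebpg the RD difference grew, from -0.15 to -0.45 beyond its class at 24 hr and from -0.07 to -0.59 at 48 hr. Atf5 turned from -0.44 to 0.15 at 24 hr and went from 0.08 to 1.09 at 48 hr. Chac1 had an RD difference of -1.30 at 48 hr, and -0.69 beyond its class. Within the mutant alone, Cebpb RD of -0.92 and -0.95 (the authors' deposited table) became -0.80 and -0.57. The WT values of 0.26 and 0.18 in the authors' deposited table became -0.21 and -0.45, and the mutant Atf5 values turned to 0.05 and 0.37. The cause of the GC trend was not tested.

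**Figure D5:**
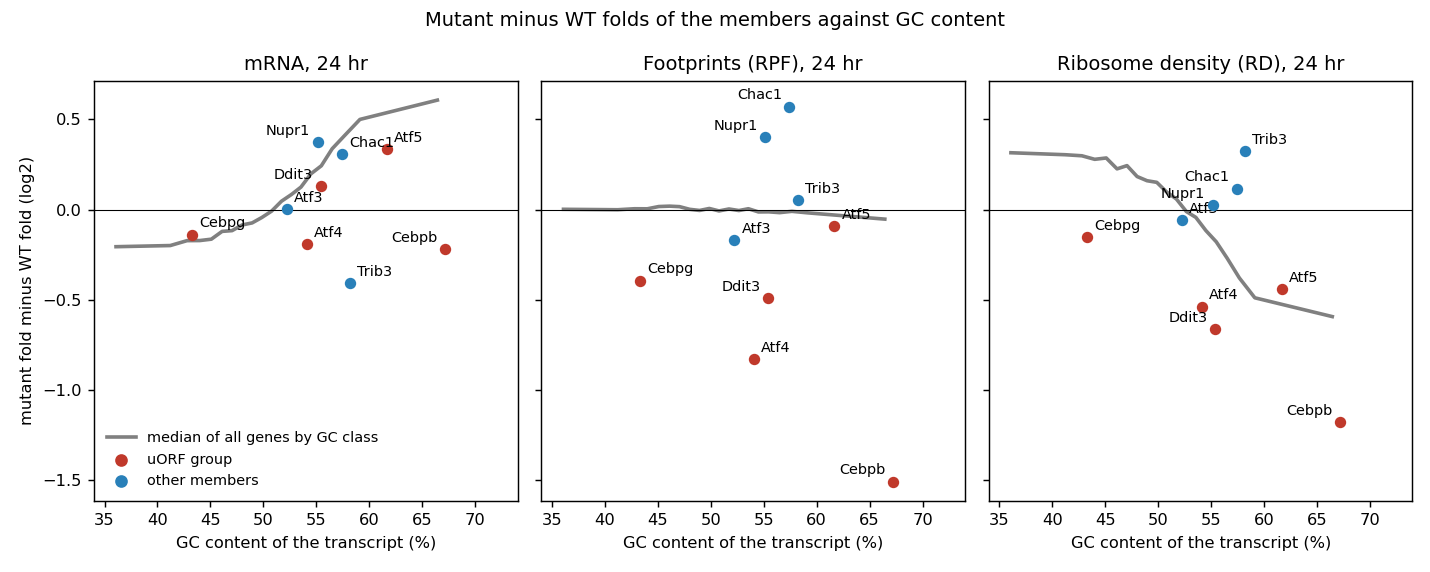
Mutant minus WT log2 fold at 24 hr for mRNA, footprints and RD against the GC content of the transcript, with the median of all genes in 20 GC classes (grey line), the 5 members with regulatory frames (red) and the other 4 (blue). In footprints the line is flat and Cebpb (-1.51) and Atf4 (-0.83) lie farthest below it.

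The wider pathway was described by lists of known genes, with the share of all genes at or above 1 in mutant mRNA at 24 hr (7.73%) and at or below -1 (7.27%) as background. Of 9 genes for kinases and phosphatase subunits acting on eIF2α, 1 reached 1 and none -1, and the median was 0.18. That gene was Eif2ak2, the kinase PKR that senses double-stranded RNA, at 1.26 in the authors' deposited table. Eif2ak3, the kinase PERK of the endoplasmic reticulum, was at 0.60 in the same authors' deposited table. Of 16 other mRNAs with regulatory upstream frames none reached 1 and 1 lay below -1, Gadd45g, an inducer of growth arrest, at -1.16 in the authors' deposited table.

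Targets of ATF4 lay on both sides of 0. Of 21 genes of amino acid synthesis and transport, 2 reached 1 and 4 reached -1, with a median of 0.36. Slc7a11, the cystine transporter, was at 4.06 in the authors' deposited table. Below -1 in the authors' deposited table were, among others, Slc7a5, a transporter of large neutral amino acids, at -1.52, Cth, which makes cysteine, at -1.10, and Psat1, of serine synthesis, at -1.09. None of 14 aminoacyl-tRNA synthetases reached 1 in either direction, and their median was 0.39. Of 20 other targets of ATF4 and CHOP, 2 reached 1 and none -1, namely Gadd45a, a growth arrest gene, at 2.05 and Gdf15, a stress cytokine, at 1.09 in the authors' deposited table. Of 24 genes of the unfolded protein response, Ern1, the sensor IRE1, was alone at or above 1, at 1.06 in the authors' deposited table.

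Of 31 partner bZIP factors 4 reached 1 and none -1. In the authors' deposited table Junb was at 2.93, Fosl1 at 2.67 and Cebpd at 1.31, the first 2 being subunits of AP-1. Junb had, like Cebpb, a lower mutant RD than WT RD, namely -0.78 against 0.66 after 24 hr and -1.20 against 0.99 after 48 hr per the authors' deposited table. Cebpd stood at -0.18 in the mutant and 0.52 in the WT in RD at 24 hr in the authors' deposited table. Gdf15 stood at -0.79 and 0.62, in the authors' deposited table. Other genes of the lists went the other way. In the authors' deposited table, RD at 24 hr was -0.11 in the mutant and -0.57 in the WT for Gadd45a, and 0.14 and -0.45 for Slc7a11. Over all genes, 56.0% had the higher RD fold in the mutant at 24 hr. The GC trend of RD applies to these genes too, and their values were not adjusted for it.

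The genes with the most similar folds were found by the root mean square difference over the 8 mRNA and RPF columns, given here as a description. Predicted gene models were left out of this search. For Atf4 they were Fosl2 (0.165), Btg2 (0.184) and Cstb (0.213). For Ddit3 they were Rnf135 (0.166), Mcur1 (0.196) and Irf9 (0.199), and for Nupr1 Bst2 (0.229), Uba7 (0.288) and Vgf (0.306). The nearest genes of Cebpb lay farther off than those of the other members, namely Mab21l3 (0.342), Vnn1 (0.345) and Rap1gap2 (0.379). How near other genes with such large folds lie to their neighbours was not computed. The closest match of all was Klf3 for Cebpg (0.0516), and the nearest genes of Atf3 (Cars, 0.114), Atf5 (Mrps28, 0.101), Trib3 (Il15ra, 0.135) and Chac1 (Olfml2b, 0.169) were also near.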

How the data were processed

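RNA-seq and Ribo-seq libraries were made from the same lysates, and footprints of 26 to 34 nt were selected, per the labels' protocols. TopHat2, featureCounts and mm10 are named, without versions, in the submitters' processing notes. The authors deposited log2 folds of treated over untreated cells, per the file headers. The sources used here do not say which program made them. The authors also deposited a score per transcript (IS, not spelled out), and its 2 WT columns were left out. The mutant RPF folds at 48 hr have 2 decimals. For 19 symbols damaged by a spreadsheet, names were taken by Ensembl identifier.

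Counts at or beyond a log2 fold of 1, differences of folds, ranks among 12205 genes and medians in 20 GC classes were computed in Python 3.11.15 with pandas 2.3.3, numpy 2.4.6 and matplotlib 3.10.9, and were checked on simulated data. Leaders and GC content came from 1 coding transcript per gene of GENCODE M21 (GRCm38), chosen by APPRIS tag and support level, and promoters from RefSeq (GRCm38.p6; all 9 members matched). All 9 members were named, up to 4 genes per list by the size of the mutant mRNA fold at 24 hr, and the 3 genes nearest to each member; other genes named were chosen after their values were seen. A gene that the rule names is not reported here. The members and lists were chosen with earlier results of these data known. Alternatives were columns centred on their median, thresholds of 0.5 and 1.5, RD from RPF minus mRNA, and GC classes.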

Additional observations from a re-analysis of the deposited data

How the results depend on the processing

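Centring each column on its median (between -0.05 and 0.04) moved none of the 229 values recomputed by more than 0.2 on the log2 scale or 1.5 times in a count. At a threshold of 0.5, members above it numbered 6 in mutant mRNA at 24 hr and at 48 hr and in mutant RPF at 24 hr, 7 in WT mRNA and in WT RPF at 24 hr, 4 in WT mRNA and 5 in WT RPF at 48 hr, and 1 in mutant and in WT RD at 24 hr. Below -0.5 in mutant RD there were 2 members at 24 hr and 3 at 48 hr. At 1.5, 2 were left in WT mRNA at 24 hr, 1 in WT RPF at 48 hr and 0 in WT RD at 48 hr. Beyond 0.5 in either direction in mutant mRNA at 24 hr were 3 of 9 eIF2α kinases and phosphatases, 6 of 16 other uORF mRNAs and 13 of 21 amino acid genes. So were 4 of 14 tRNA synthetases, 9 of 20 other targets, 13 of 31 bZIP partners and 3 of 24 genes of the unfolded protein response. The share of all genes past 0.5 or 1.5 was not computed, so these counts stand without a background. For scale, in mutant mRNA at 24 hr 81.1% of all genes lay below the 0.41 of Atf5 and 87.8% below the 0.64 of Atf3. These shares cover the upper direction of 1 column alone, so they are not a background for the counts in either direction.

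The GC step was chosen after seeing the data. With it, 70 of the 182 values listed moved by more than 0.2. That list holds the RD folds of the members with regulatory frames repeatedly, so fewer values are distinct. RD at 48 hr in the mutant became 0.37 for Atf5, -0.57 for Cebpb and 0.076 for Cebpg. WT RD at 24 hr became -0.10 for Atf5, -0.21 for Cebpb and 0.48 for Cebpg, and at 48 hr -0.72, -0.45 and 0.65 for the same genes and -0.47 for Ddit3. In all, 8 of 36 RD folds of members changed sign, those of Cebpb and Trib3 in the WT at both times, of Ddit3 and Atf5 in the WT at 24 hr, and of Atf5 in the mutant at both times. With RPF minus mRNA in place of the deposited RD, also chosen then for the difference of genotypes, the mutant minus WT value at 48 hr was -0.99 for Chac1, -1.36 for Cebpb and -0.35 for Trib3. In the mutant alone that measure put Cebpb at -1.05 at 48 hr (-1.03 with both centred), past -1, where the deposited RD was -0.95. The cause was not tested. No paired analysis was possible because the table holds 1 pooled fold per comparison, and for the same reason no replicate could be left out. With no counts per library, the precision of each fold is unknown.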

Other observations

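Of the 9 genes only Nupr1 has a row in the authors' table of IS values, a score whose name its file leaves unexplained. In that authors' deposited table its mutant value was 2.60 at 0 hr, place 1128 of 2332 transcripts (median 2.42), and 0.967 at 24 hr, place 1419 (median 1.73).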
